A study of Schizosaccharomyces pombe with 28 samples.

Results

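The 32 genes described here encode translation initiation and elongation factors of the fission yeast Schizosaccharomyces pombe. They are the genes whose symbol in the probe annotation begins with tif, tef or eft followed by a digit, and they make up 32 of the 4929 genes measured. The choice rests on names alone and used no measured value. Of the 32 genes, 26 encode initiation factors and 6 encode elongation factors. Each gene had 2 probes, and all 32 were found in the RefSeq gene table. The factor that each gene encodes is given from general knowledge of fission yeast genes, since neither table names the products. The rule leaves out some factor genes with other names, and the second eEF2 gene was not analysed here.

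The arrays are 28 two-colour hybridisations in which Cy3 and Cy5 cDNA both came from wild-type cells of strain LJY1014 (genotype h- leu1-32, a leucine auxotroph), so neither colour carried a treatment. Cells were harvested in early-log growth in YES, a rich yeast extract medium, from separate cultures. All 28 arrays form 1 group, and each is named here by its hybridisation number. An array of this kind holds a ratio for each gene and no level, so neither the strain nor the growth state can be checked through marker genes.

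Translation starts when initiation factors bring the initiator tRNA and the small ribosomal subunit to a capped mRNA and find the start codon. eIF2 carries the initiator tRNA with GTP, eIF2B reloads eIF2 with GTP, and eIF3 holds the small subunit ready. eIF4E binds the cap, eIF4G bridges the cap to the ribosome and eIF4A unwinds the leader, after which eIF5 and eIF5B act in subunit joining. In elongation, eEF1A delivers aminoacyl tRNA, eEF1B recharges eEF1A with GTP, eEF2 moves the ribosome by a codon, and eEF3, found in fungi, helps to release the spent tRNA. In growing yeast some of these factors, such as eEF1A, are among the abundant proteins, and eEF1A is made from several nearly identical genes.

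Each value below is a log2 ratio of the colours, averaged over the 2 probes of a gene, after each array was centred on the median of its 4929 genes. A value of 0 therefore means the same ratio as the typical gene of that array. Which colour is the numerator, and whether dyes were swapped, is not given in the sources used here, so a sign names no culture, and testing a mean takes every array to have the same orientation. Clustering of these ratios, cut so as to give 3 groups, divided the arrays into 3 sets that are absent from the labels. The number of sets was thus chosen and not found, and arrays within a set can still differ. The first set has 10 arrays, namely 1 to 8, 19 and 20, and is called here the set of array 1. The second has 10, numbered 9 to 18. The third has the last 8, numbered 21 to 28. Arrays of a set resemble each other, so standard errors and p-values that treat the 28 arrays as separate are too small. The precision is therefore limited by the number of sets, which is 3, and not only by the number of arrays. The source of the differences between sets was not tested.

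Translation factor genes lay mostly on the positive side of the ratio. Of the 32 genes, 23 had a mean ratio above 0 by limma at an adjusted p-value (Benjamini-Hochberg over 4929 genes) under 0.05, where 27.8% of all genes did. None lay below 0 by limma, at the unadjusted 0.05 level as well (0 genes), where 24% of all genes did after adjustment. The members' median mean ratio was 0.16, against 0.01 for all genes. The 9 genes past the test in neither direction were tef102, tif213, tif222, tif223, tif225, tif301, tif306, tif307 and tif471.

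No single member passed when the sets of arrays were treated as a random block. In that fit 0 of the 32 genes lay above 0, where 0.629% of all genes did. Likewise 0 lay below, where 0.812% of all genes did. Both counts are near those shares, so they cannot decide whether the members lean as a group. At an unadjusted p-value under 0.05, limma with the block had 8 genes above 0 (tif11, tif211, tif212, tif302, tif45, tif452, tif51 and tif6) and 0 below. The share of all genes at that unadjusted level is not given here, so these counts have no baseline and no leaning is read from them. The nearest to the threshold was tif45, the gene of the cap-binding protein eIF4E, with an adjusted p-value of 0.0526 in that limma fit. No member lay above 0 in every one of the 28 arrays, a pattern that 0.507% of all genes had. The mean was above 0 in each of the 3 sets for 12 of the 32 genes, against 15.5% of all genes. The 12 were tef3, tef5, tif1, tif11, tif212, tif302, tif310, tif45, tif452, tif51, tif512 and tif6.

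**Figure D1:**
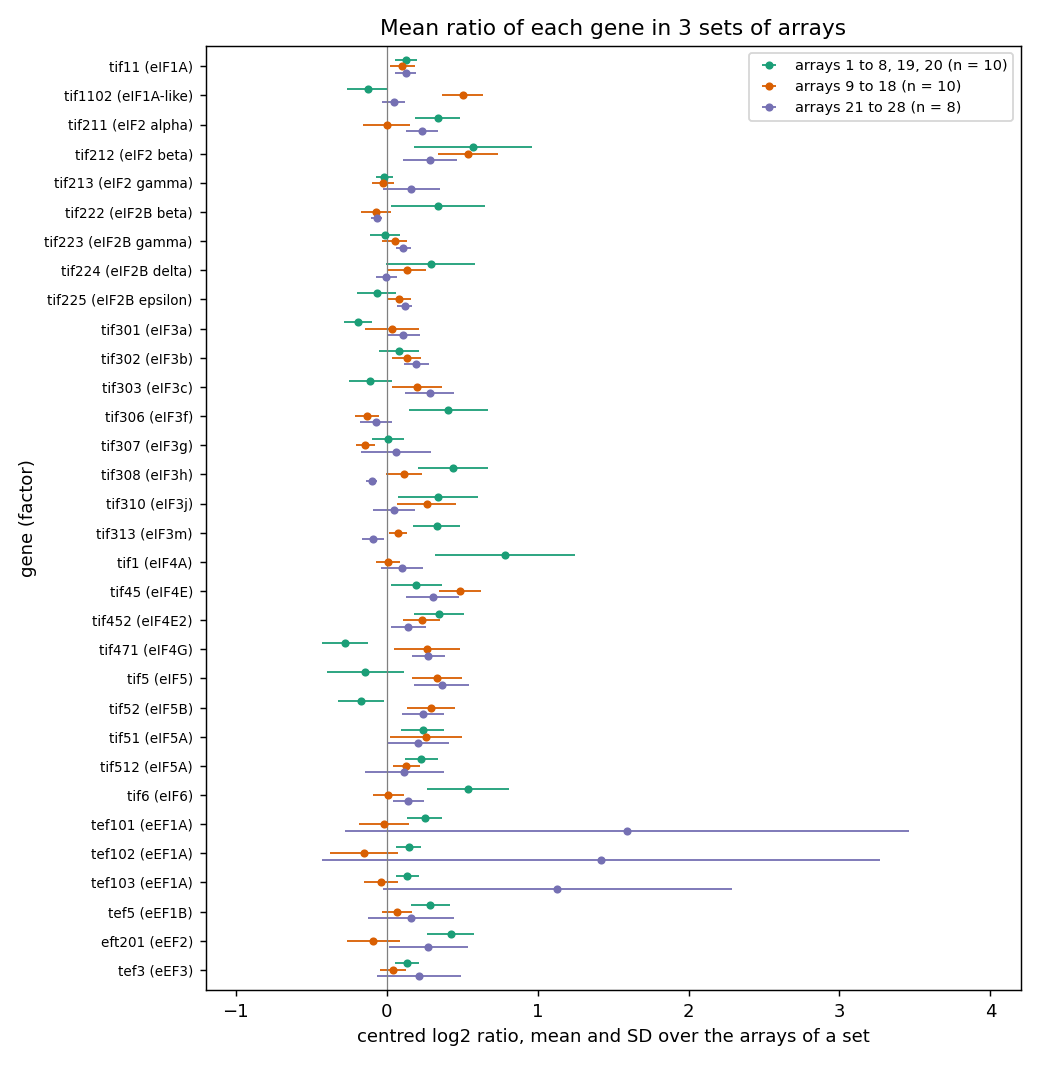
Mean centred log2 ratio (x axis) of each of the 32 genes (y axis, with the factor encoded) in the sets of 10, 10 and 8 arrays, with bars for the SD over the arrays of a set. The eEF1A genes have wide bars in the set of arrays 21 to 28, and tif1, tif6 and tif306 lie to the right in the set that holds array 1.

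Ratios of these genes also moved from array to array, and the 2 probes of a gene mostly moved together. Variation between arrays exceeded the disagreement of the 2 probes, at an adjusted p-value under 0.05, in 26 of the 32 genes and in 55.7% of all genes. The 6 without it were tef103, tif11, tif211, tif224, tif302 and tif310. With the differences between sets removed, 19 of the 32 had it, against 25.3% of all genes. The probes of a gene correlated above 0.5 across the 28 arrays in 21 of the 32, against 41.2% of all genes, and below 0 in 3 (tif224, tif302 and tif310), against 13.4% of all genes. The median SD across arrays was 0.23 for the members and 0.16 for all genes. A median of 40.7% of a member's variance lay between the sets, and 43.7% for all genes.

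**Figure D2:**
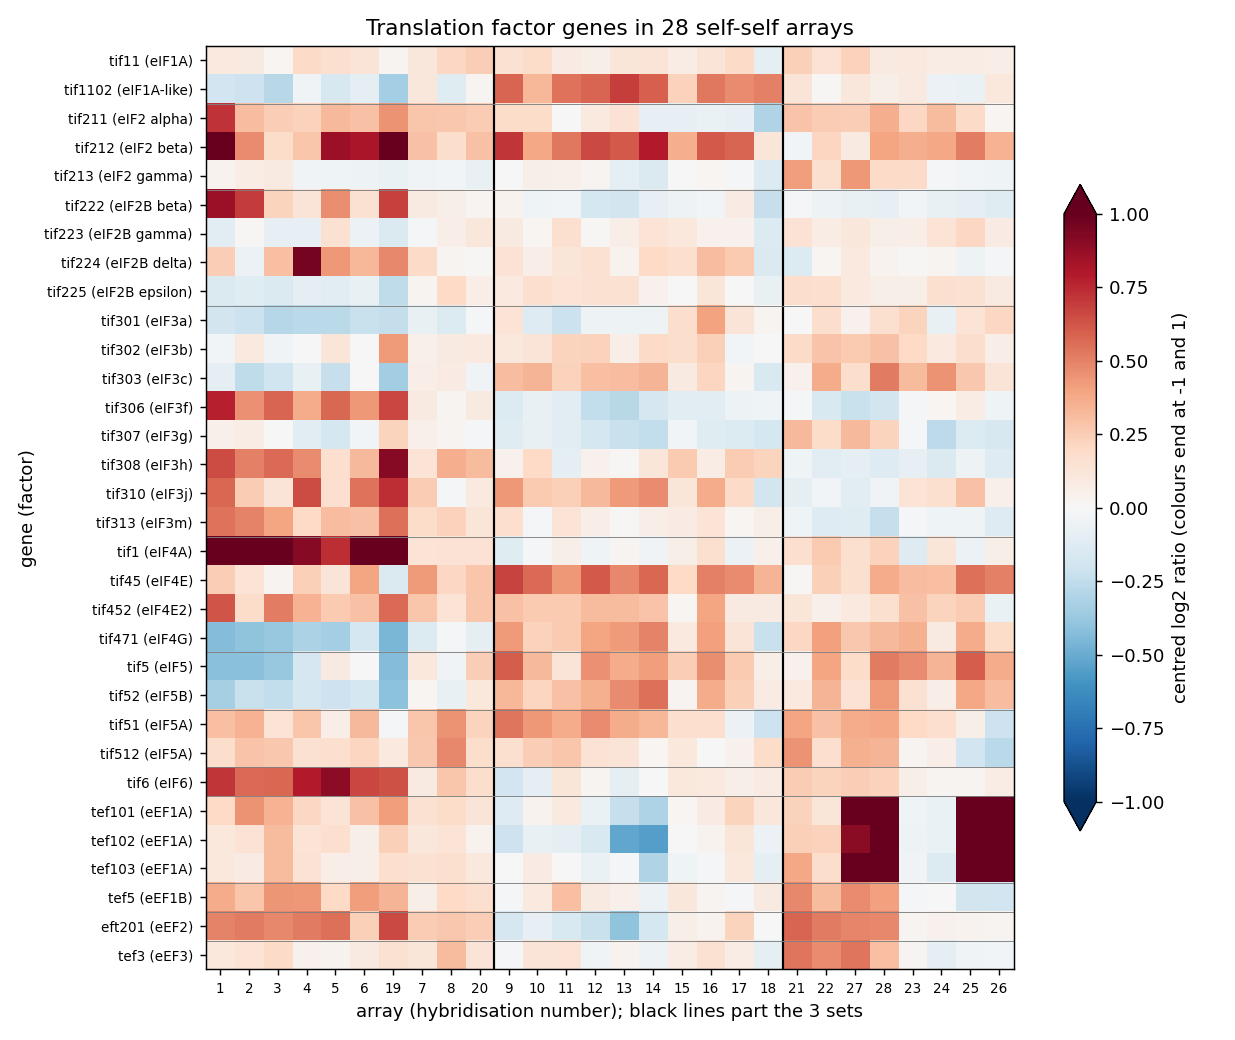
Centred log2 ratio (colour, ending at -1 and 1) of the 32 genes (y axis, grouped by factor) in the 28 arrays (x axis, ordered by set). The dark block at the lower right is eEF1A in arrays 25 to 28, and the dark row at the left, in arrays 1 to 6 and 19, is tif1.

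The eEF1A genes spread most of all members, and 4 arrays held nearly all of that spread. tef101 (SPCC794.09C), tef102 (SPAC23A1.10) and tef103 (SPBC839.15C) all encode eEF1A. tef101 ranged from -0.31 in array 14 through a median of 0.14 to 4.87 in array 25. tef102 ranged from -0.55 in array 14 through a median of 0.11 to 4.89 in array 25, and tef103 from -0.30 in array 14 through 0.09 to 2.72 in array 26. In arrays 1 to 24 the highest value of any of the 3 was 0.45, for tef101 in array 2, so arrays 25 to 28 stood wholly apart.

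In those 4 arrays tef101 read 4.87, 3.57, 2.09 and 1.97 in order of array number. tef102 read 4.89, 3.52, 0.90 and 1.69, and tef103 read 2.36, 2.72, 1.92 and 1.66. All 12 values lay above every value of the same gene in the other 24 arrays. The 3 eEF1A genes made up the 3 of 4929 genes with that separation (0.0609%), and the 4 arrays were singled out for these high readings, so this is a description. The single probes show that these averages joined unlike readings. Both probes of tef101 and of tef102 lay between 4.86 and 4.89 in array 25. In array 26 the first probe of tef101 read 1.81 and the second 5.34, and the probes of tef102 read 1.66 and 5.39. In array 27 the order of the tef101 probes was the opposite, at 3.69 and 0.50, and the tef102 probes read 1.15 and 0.65. In array 28 the first probes of tef101 and tef102 read 3.05 and 3.02 and the second probes 0.88 and 0.35.

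The probes of tef103 disagreed in all 4 arrays. Its first probe read -0.14, 0.12, 0.60 and 0.28 and its second 4.86, 5.31, 3.24 and 3.04. The first probe had an SD of 0.198 over the 28 arrays and the second 1.51. For tef103, variation between arrays did not exceed the disagreement of its probes (adjusted p = 0.353), and the probes correlated at 0.18.

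Values over 3 were rare in the table outside these genes. Arrays 1 to 24 had 0 probes over 3, and arrays 25 to 28 had 21 in all, of which 13 were eEF1A probes. Thus 13 of the 24 eEF1A probe readings in the 4 arrays were over 3. In array 25, 12 probes were over 3 and lay within 4.84 to 4.89, 5 of them eEF1A. The others were both probes of pma1, the plasma membrane proton pump gene, 1 probe each of the ribosomal protein genes rps901, rpl1201, rpl18 and rpl802, and 1 probe of SPCC576.17C. In array 26, 4 probes lay between 5.31 and 5.39, 3 of them eEF1A. In array 27 both probes over 3 were eEF1A (3.24 and 3.69), and in array 28 all 3 were (3.02 to 3.05). Array 27 is the array whose centring moved its values most, and before centring the second tef103 probe read 2.94 there. The high readings thus lay in a narrow band in arrays 25, 26 and 28. Spot intensities were not used here, so a ceiling of the signal was not tested.

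**Figure D3:**
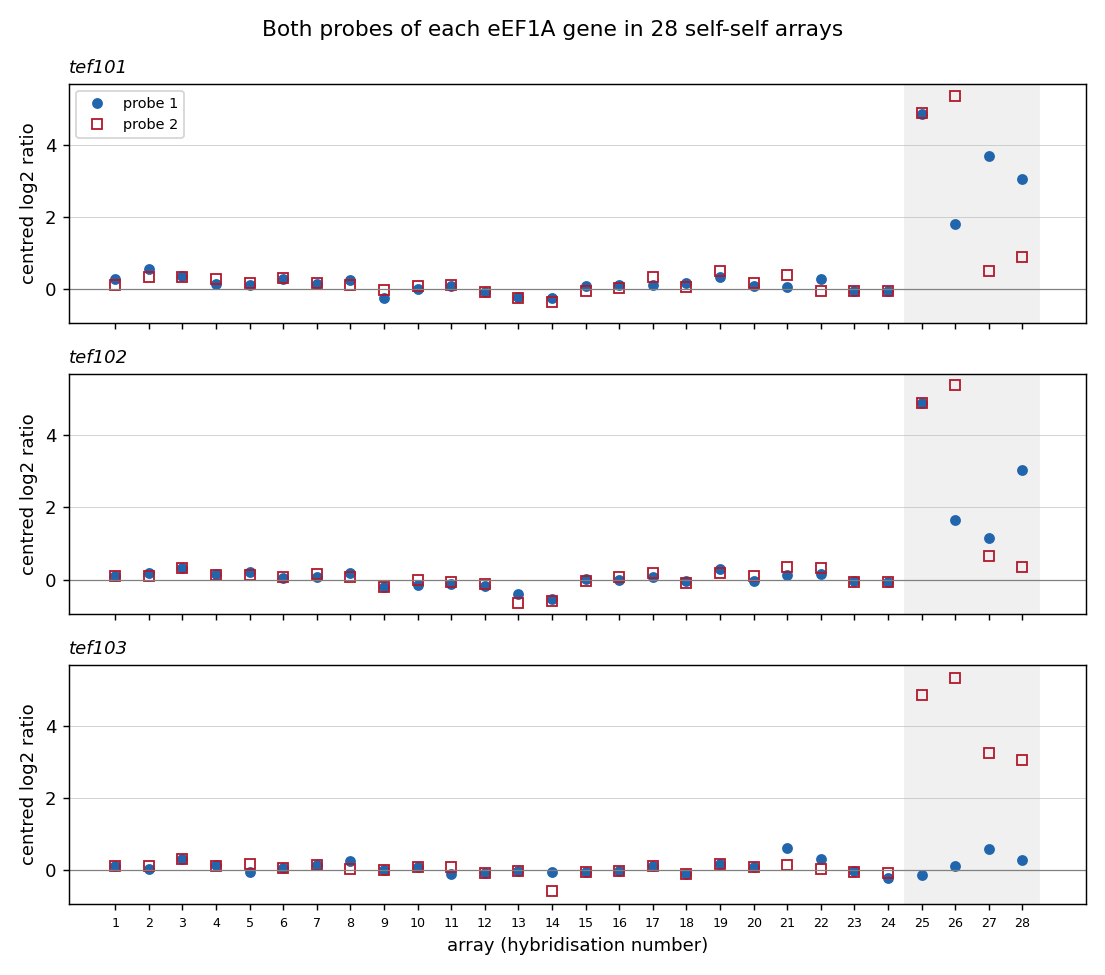
Centred log2 ratio (y axis) of each probe of tef101, tef102 and tef103 in each of the 28 arrays (x axis), with arrays 25 to 28 shaded. The probes lie between -0.64 and 0.62 in arrays 1 to 24 and reach 5.39 in array 26, while the first tef103 probe lies between -0.14 and 0.60 in arrays 25 to 28.

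With all 28 arrays the mean ratio of tef101 was 0.54 with an SE of 0.21 (adjusted p = 0.0351 by limma), that of tef102 0.40 with an SE of 0.21 (adjusted p = 0.108) and that of tef103 0.36 with an SE of 0.14 (adjusted p = 0.0296). Without arrays 25 to 28 the means were 0.11 for tef101 (adjusted p = 0.0167), 0.01 for tef102 (adjusted p = 0.819) and 0.06 for tef103 (adjusted p = 0.105), all by limma. The SDs over the 24 arrays were 0.19, 0.21 and 0.14, against 1.18, 1.16 and 0.78 over 28. The median member had an SD of 0.21 over the 24 arrays, close to those of tef101 and tef102 and above that of tef103.

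Across those 24 arrays 19 of the 32 genes lay above 0 by limma, where 28.3% of all genes did, and 0 below (0 also at the unadjusted level), where 23.9% did. The calls lost were tef103, tif303, tif5 and tif52. Variation reproducible between probes was found in 24 of the 32, against 51% of all genes. tef103 gained it, and tef5, tif222 and tif452 lost it.

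The 3 eEF1A genes read closely alike in some arrays and apart in others. Among the 15 pairs of their 6 probes in arrays 1 to 24, 113 of 360 pairs agreed within 0.02 on the log2 scale. That is 31.4%, against 8.71% for the 2 probes of a gene over all genes in the same arrays. In array 3 all 6 probes lay between 0.32 and 0.37, and in array 23 between -0.05 and -0.02, the narrowest of the 24 arrays. The widest was array 13, from -0.64 to -0.02, and arrays 2, 14 and 21 spanned 0.50, 0.54 and 0.55, with 1, 1 and 0 of 15 pairs within 0.02. The probes of tef103 agreed within 0.02 in 14 of the 28 arrays, the most of any of the 4929 genes (median 2), and their deposited values were identical in 10 arrays (median 0). tef101 and tef102 did so in 7 arrays each, and 42 genes did so in more. Deposited values were also tied between genes. In array 1 the second tef101 probe and both probes of tef102 and tef103 held 0.06626. In array 24 both probes of tef101 and of tef102 held -0.07856. After centring, tef102, tef103 and tef3, the eEF3 gene, all averaged 0.1055 in array 1. Such ties enter the agreement above and the correlations below, and their source was not tested. The probe sequences were not used here, so how far each probe reads the transcript of 1 copy was not tested.

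Over arrays 1 to 24 the ratios of tef101 and tef102 correlated at 0.87, those of tef102 and tef103 at 0.79 and those of tef101 and tef103 at 0.72. All such correlations are descriptions over 24 arrays that share sets, slides and centring. With the set means removed, tef101 and tef102 correlated at 0.84. Removing the set means, here and below, leaves any grouping of arrays within a set in place. Over all 28 arrays the average of the 3 pairs was 0.95, a value set by the 4 high arrays. The genes most like tef101 over the 24 arrays, by Pearson's r, were wbp1 (0.88), ymc1 (0.88), tef102 (0.87), oga1 (0.87) and lsb1 (0.86). eft201 came at rank 21 and tef103 at rank 261.

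The other elongation factor genes stayed below 1 in every array and shared a different contrast. eft201 (SPAC513.01C), which encodes eEF2, ranged from -0.40 in array 13 through a median of 0.23 to 0.66 in array 19, with a mean of 0.20, an SE of 0.05 and an SD of 0.30 (adjusted p = 0.0025 by limma). It lay between 0.24 and 0.66 in the set of array 1, between -0.40 and 0.22 in arrays 9 to 18 and between 0.03 and 0.58 in arrays 21 to 28. tef3 (SPCC417.08), which encodes eEF3, ranged from -0.09 in array 18 through 0.10 to 0.54 in array 27, with a mean of 0.12 and an SD of 0.17. tef5 (SPCC1450.04), which encodes an eEF1B subunit, ranged from -0.19 in array 26 through 0.14 to 0.48 in array 21, with a mean of 0.17 and an SD of 0.20. All 3 passed limma's test of the mean. The probes of tef5 averaged 0.08 and 0.27, and its first probe alone did not pass (adjusted p = 0.055 by limma).

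Arrays 21, 22, 27 and 28 stood above arrays 23 to 26 for these 3 genes, without overlap. In all, 8 of the 32 members separated this way (also tif1, tif307, tif51, tif512 and tif6), against 10% of all genes, and 1 the opposite way (tif310), against 9.33%. The quartets were read from the ratios themselves, so the counts are descriptions. eft201 lay between 0.48 and 0.58 in the first 4 and between 0.03 and 0.04 in the other 4. tef3 lay between 0.30 and 0.54 against -0.09 and 0.03, and tef5 between 0.32 and 0.48 against -0.19 and 0.01. The eEF1A genes were split otherwise, since their high arrays 25 and 26 fall in one of these quartets and 27 and 28 in the other. Accordingly eft201 correlated with tef101 at 0.09 and with tef102 at 0.07 over 28 arrays, and at 0.82 and 0.87 over arrays 1 to 24. tef5 correlated with eft201 at 0.71 over either number of arrays.

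Among initiation factors, eIF4A had the widest spread. tif1 (SPAC1006.07), which encodes this RNA helicase, ranged from -0.13 in array 23 through a median of 0.14 to 1.22 in array 1, with a mean of 0.31, an SE of 0.08 and an SD of 0.46 (adjusted p = 0.00195 by limma). Its values were 0.74 to 1.22 in arrays 1 to 6 and 19, 0.14 in each of arrays 7, 8 and 20, -0.12 to 0.16 in arrays 9 to 18 and -0.13 to 0.26 in arrays 21 to 28. Thus 7 arrays stood above all others, as they did for 4 of the 32 members (tif1, tif222, tif306 and tif6) and for 4.28% of all genes. The 2 probes correlated at 0.90, and the variation exceeded their disagreement (adjusted p = 2.54e-11).

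The genes of the cap-binding partners of eIF4A differed in how far they went with tif1. tif471 (SPAC17C9.03), which encodes eIF4G, ranged from -0.45 in array 19 through 0.16 to 0.50 in array 14, with a mean of 0.08 and an SD of 0.31. It was low where tif1 was high, at -0.45 to -0.17 in arrays 1 to 6 and 19, and the pair correlated at -0.81 over 24 arrays and at -0.47 with the set means removed. tif45 (SPAC16E8.15), which encodes eIF4E, ranged from -0.14 in array 19 through 0.33 to 0.67 in array 9. It was above 0 in 27 arrays, with a mean of 0.33, an SE of 0.04 and an SD of 0.20 (adjusted p = 2.41e-08 by limma without the block). tif452 (SPBC1709.18), which encodes a second eIF4E-type protein, ranged from -0.06 in array 26 through 0.26 to 0.63 in array 1, was also above 0 in 27 arrays and had a mean of 0.25 and an SD of 0.16. tif1 correlated with tif45 at -0.61 and with tif452 at 0.54, and with the set means removed at -0.37 and 0.38. tif45 and tif452 correlated at -0.13, and tif45 with tif471 at 0.67. The 4 cap-complex genes averaged a pairwise correlation of -0.11, from -0.81 to 0.67.

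eIF5 and eIF5B, the GTPase activator of eIF2 and the GTPase of subunit joining, moved with eIF4G. tif5 (SPAC2F7.05C) ranged from -0.44 in array 19 through 0.25 to 0.61 in array 9, with a mean of 0.17 and an SD of 0.31. tif52 (SPAC56F8.03) ranged from -0.41 in array 19 through 0.12 to 0.55 in array 14, with a mean of 0.11 and an SD of 0.26. Both means passed limma's test over 28 arrays, with adjusted p-values of 0.0103 and 0.0458, and neither passed without arrays 25 to 28 (0.0644 and 0.201). Over arrays 1 to 24 tif471 and tif52 correlated at 0.94, the highest of the 496 pairs of members, tif471 and tif5 at 0.89 and tif5 and tif52 at 0.87. With the set means removed the values were 0.85, 0.72 and 0.69.

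eIF3 subunit genes fell into opposing patterns. Of the 8, 5 lay above 0 by limma, and 6 varied reproducibly between probes. tif306 (SPBC4C3.07, eIF3f) ranged from -0.28 in array 13 through -0.03 to 0.78 in array 1, with a mean of 0.08 and an SD of 0.30. It lay between 0.37 and 0.78 in arrays 1 to 6 and 19 and between -0.28 and 0.09 in all the others. tif308 (eIF3h) ranged from -0.15 to 0.91, with a mean of 0.17 and an SD of 0.27, and tif313 (eIF3m) from -0.23 to 0.55, with a mean of 0.12 and an SD of 0.20. Both were at or below -0.01 throughout arrays 21 to 28 and at or above 0.12 throughout the set of array 1. Over 24 arrays tif306 and tif313 correlated at 0.86, tif308 and tif313 at 0.84 and tif306 and tif308 at 0.78.

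The genes of the core subunits eIF3a and eIF3c ran the other way, for eIF3a mainly between sets. tif303 (SPAC4A8.16C, eIF3c) ranged from -0.35 in array 19 through 0.11 to 0.52 in array 28, with a mean of 0.11 and an SD of 0.23. tif301 (eIF3a) ranged from -0.29 in array 3 to 0.40 in array 16, with a mean of -0.02 and an SD of 0.18, and was below 0 in every array of the set of array 1. tif303 correlated with tif308 at -0.80 and with tif306 at -0.79, and with the set means removed at -0.54 and -0.54. tif301 correlated with tif308 at -0.51, with tif313 at -0.59 and with tif306 at -0.65, but with the set means removed at 0.0008, -0.10 and -0.26. tif301 and tif303 correlated at 0.51, and at 0.01 with the set means removed. tif302 (eIF3b) had a mean of 0.13 and an SD of 0.11, tif307 (eIF3g) a mean of -0.03 and an SD of 0.16, and tif310 (eIF3j) a mean of 0.23 and an SD of 0.24. For tif302 and tif310 the probes correlated below 0, so their variation across arrays was not shared by their probes. The probes of tif302 averaged 0.05 and 0.21, and those of tif310 0.43 and 0.02. By limma on a single probe, the first of tif302 (adjusted p = 0.1345) and the second of tif310 (adjusted p = 0.6766) did not pass. Over the 28 pairs of these 8 eIF3 genes the correlation averaged 0.02 and ran from -0.80 to 0.86. The eIF3 subunit genes moe1, int6 and sum1 have names outside the rule and are not in these pairs.

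eIF2 genes differed in mean, and their ratios correlated little on average. tif212 (SPAC32A11.04C), which encodes eIF2 beta, had the highest mean of any member outside eEF1A, at 0.48 with an SE of 0.05 and an SD of 0.30 (adjusted p = 2.57e-08 by limma). It ranged from -0.03 in array 21 through 0.39 to 1.18 in array 19, was above 0 in 27 arrays, and its probes averaged 0.38 and 0.57. With the sets as a block its adjusted p-value was 0.113. tif211 (SPAC3G9.09C), which encodes eIF2 alpha, the subunit phosphorylated under stress, had a mean of 0.19 and an SD of 0.20 and ranged from -0.30 to 0.72. Its probes correlated at 0.04. tif213 (SPBC17G9.09), which encodes the GTP-binding eIF2 gamma, had a mean of 0.03 and an SD of 0.14 and ranged from -0.14 in array 14 through -0.01 to 0.43 in array 27. The 3 pairs of eIF2 genes averaged a correlation of 0.06 over 24 arrays, and 0.20 with the set means removed.

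Of the 4 eIF2B genes, only tif224 (eIF2B delta) lay above 0 by limma, with a mean of 0.15 and an SD of 0.22. Its highest value was 0.96, in array 4, and its probes correlated at -0.26. tif222 (eIF2B beta) ranged from -0.23 in array 18 through -0.03 to 0.87 in array 1, with a mean of 0.08 and an SD of 0.28. tif223 (SPAC4D7.09, eIF2B gamma) ranged from -0.14 in array 19 through 0.07 to 0.21 in array 25, with a mean of 0.05 and an SD of 0.09. tif225 (eIF2B epsilon), the catalytic subunit, ranged from -0.26 to 0.20, with a mean of 0.04 and an SD of 0.12. tif222 and tif225 correlated at -0.73, and tif223 and tif225 at 0.67. tif222 instead correlated at 0.89 with tif306 and at 0.88 with tif313.

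The remaining initiation factor genes ranged from the most stable to among the most variable. tif11 (SPBC25H2.07), which encodes eIF1A, had the smallest SD of the members, 0.07, and ranged from -0.09 in array 18 through 0.12 to 0.25 in array 20. It was above 0 in 27 arrays, with a mean of 0.12 and an SE of 0.02 (adjusted p = 1.52e-06 by limma, and 0.251 with the block). Its near namesake tif1102 (SPBC146.08C), taken here to encode an eIF1A-like protein, ranged from -0.34 in array 19 through 0.10 to 0.69 in array 13, with a mean of 0.15 and an SD of 0.30. tif1102 lay between 0.23 and 0.69 in arrays 9 to 18 and at or below 0.13 in all others, a separation that 0.994% of all genes had, and 84.9% of its variance lay between sets, the highest share of the members. tif11 and tif1102 correlated at -0.03.

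tif6 (SPCC1919.09) encodes eIF6, which keeps the ribosomal subunits apart and acts in making the large one. It ranged from -0.19 in array 9 through 0.11 to 0.90 in array 5, with a mean of 0.24 and an SD of 0.29. It lay between 0.57 and 0.90 in arrays 1 to 6 and 19 and at or below 0.27 elsewhere, as tif1 and tif306 did in their own ranges. tif1 correlated with tif306 at 0.93 and with tif6 at 0.91 over 24 arrays, and at 0.80 and 0.76 with the set means removed. The 2 probes of tif6 averaged 0.03 and 0.44 and correlated at 0.75.

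eIF5A, the factor that carries hypusine and eases difficult peptide bonds, is encoded by tif51 and tif512. tif51 (SPAC26H5.10C) ranged from -0.21 in array 18 through 0.29 to 0.53 in array 9, with a mean of 0.24 and an SD of 0.19. tif512 (SPBC336.10C) ranged from -0.27 in array 26 through 0.17 to 0.48 in array 8, with a mean of 0.16 and an SD of 0.16. Both lay above 0 by limma and had means above 0 in all 3 sets, and 1.15% of the variance of tif51 lay between sets, the lowest share of the members. The pair correlated at 0.40 over 24 arrays and at 0.60 over 28. tif512 ranged from 0.17 to 0.45 in arrays 21, 22, 27 and 28 but from -0.27 to 0.06 in arrays 23 to 26, as eEF2, eEF3 and eEF1B also differed between these quartets.

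Within eIF2, eIF2B and eIF3 the genes of the same factor correlated little on average across arrays. Over all 496 pairs of members the correlation averaged 0.04 over 24 arrays and ran from -0.92, for tif306 and tif52, to 0.94. The averages were 0.80 within eEF1A, 0.40 within eIF5A, 0.06 within eIF2, -0.17 within eIF2B and 0.02 within eIF3. They include genes whose own probes correlated at 0.04 (tif211) or below 0 (tif224, tif302 and tif310). A low average therefore need not mean unlike patterns. With the set means removed the average over all pairs was 0.06.

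**Figure D4:**
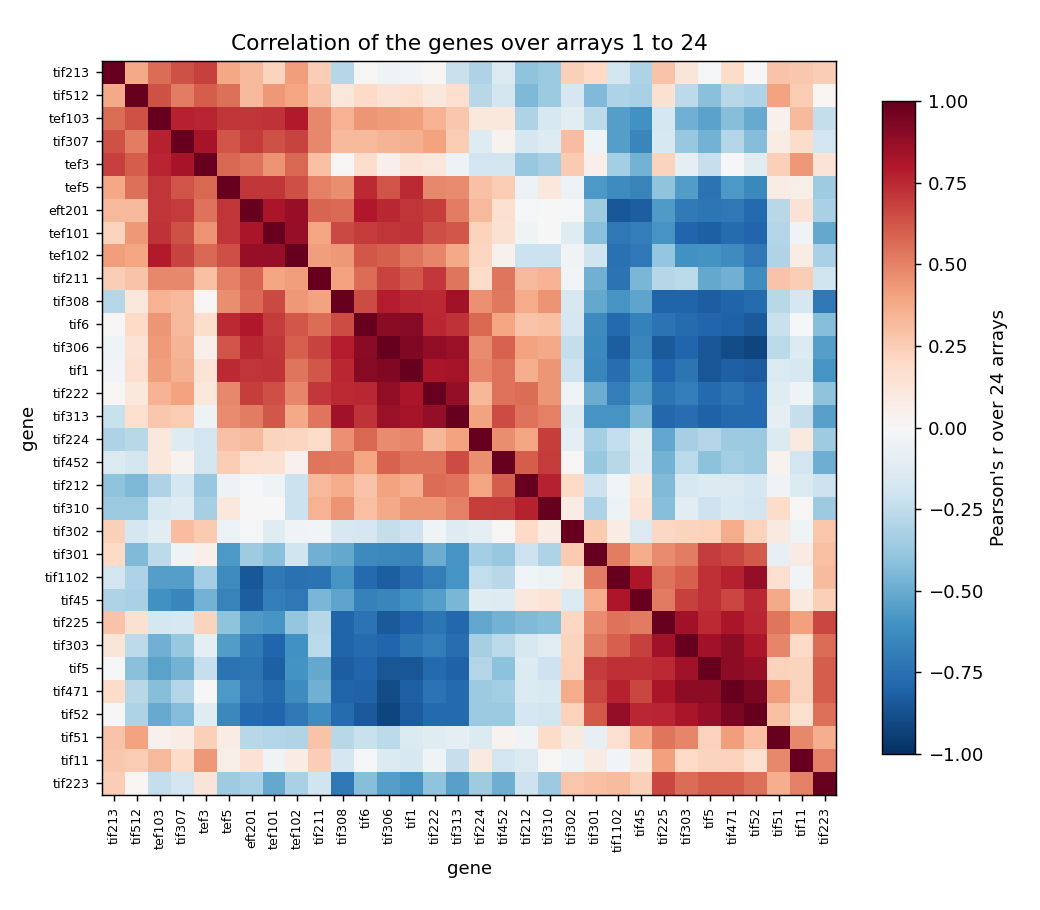
Pearson's r of each pair of the 32 genes over arrays 1 to 24 (colour), with the genes ordered by average linkage. One block joins tif1, tif6, tif306, tif222, tif308 and tif313 with tef101, tef102 and eft201, and an opposing block joins tif471, tif52, tif5, tif303 and tif225.

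Gene length was set beside the ratios because several genes of the block with tif471 are long. Gene length is the span of the gene in the RefSeq annotation. Among the 29 genes other than eEF1A, the mean ratio in the set of array 1 correlated with length at a Spearman rho of -0.45, against -0.23 over 4791 genes. In arrays 9 to 18 rho was -0.11 for the 29 genes and -0.19 for all genes, and in arrays 21 to 28 it was 0.23 and -0.09. By single array, rho for the 29 genes ran from -0.55 to -0.31 in the set of array 1, from -0.30 to 0.13 in arrays 9 to 18 and from -0.11 to 0.42 in arrays 21 to 28. These are correlations across genes of the same arrays, and genes are not replicates.

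Of the 9 genes of at least 2000 bases, 5 had a mean below 0 in the set of array 1 (tif225, tif301, tif303, tif471 and tif52), close to the 58.5% of all 2045 genes of that length, and the median of the 9 was -0.07. The 20 shorter members had a median of 0.31 there, and 16 of them lay above 0, against 58.8% of all 2746 shorter genes and their median of 0.05. In arrays 9 to 18 the longer genes had a median of 0.13 and the shorter ones 0.09, and in arrays 21 to 28 they had 0.21 and 0.12. eft201 is long, at 2619 bases, and stood high in the set of array 1 at a mean of 0.42. tif1102, at 979 bases, and tif5, at 1680 bases, are shorter and stood low, at -0.13 and -0.14. Whether length, and the oligo-dT priming of the cDNA, play a part in the ratios was not tested.

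**Figure D5:**
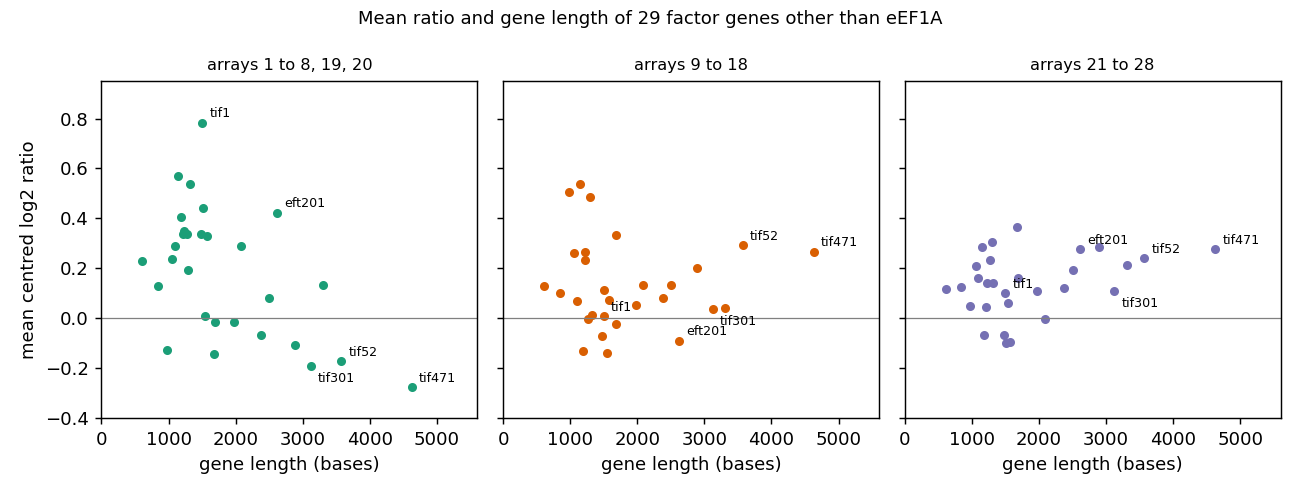
Mean centred log2 ratio (y axis) against gene length in bases (x axis) for 29 genes in each set of arrays, 1 point per gene. tif471, the longest, lies lowest in the set of array 1 at -0.28, where tef3 and eft201, also long, lie at 0.13 and 0.42, and in the other sets tif471 lies at 0.27 and 0.28.

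Other translation genes, listed by name, gave a smaller median ratio, but the list is mixed in role. It holds mitochondrial factors, eIF2 alpha kinases and modifying enzymes beside cytosolic factors, so its median is not that of like genes. Of 38 listed names, 32 genes were found and 29 kept. ctp1, dsk2 and pab1 were left out after their values were seen, because their match was to a gene of another role. Of the 29, 14 lay above 0 by limma (27.8% of all genes did), 2 below (24% of all genes did) and 13 passed in neither direction, with a median mean of 0.07 and a median SD of 0.19. Those below 0 were gcn1, whose product helps to activate the eIF2 alpha kinase Gcn2, at -0.17, and hri1, an eIF2 alpha kinase gene, at -0.16. Among those above 0 were tma20 at 0.42, the ribosome recycling ATPase gene rli1 at 0.33, dys1, whose enzyme begins hypusine synthesis on eIF5A, at 0.25, and sui1, which encodes eIF1, at 0.20. The initiation factor genes sce3, moe1, int6 and sum1 also lay above 0 by limma, at 0.16, 0.13, 0.11 and 0.10. Like sui1, tma20, rli1 and dys1, they did not pass with the sets as a block. The probes of tma20 correlated at -0.34. Of the 29 genes, 1 passed with the sets as a block (adjusted p = 0.0286 by limma). That gene was cpc2, which encodes the ribosomal scaffold protein RACK1, at 0.24, and its probes correlated at -0.42. The release factor gene sup35 had a mean of 0.04 and did not pass (adjusted p = 0.352 by limma).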

How the data were processed

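The authors deposited 1 table of log2 ratios of the Cy3 and Cy5 channels, of unstated direction, for 28 arrays. Per the labels, slides were scanned with a GenePix instrument, the background was corrected, flagged and dim features were removed, and medians of log2 ratios were given. The deposited table nevertheless holds 0 missing values among 9858 probes, and how arrays were scaled is not given in the sources used here. Spot intensities, probe sequences and a genome were not used here, and no coordinates are given because no build is named.

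From these values each array was centred on the median of its 4929 gene averages, and 2 probes per gene were averaged. The test of a gene's mean was limma (version 3.58.1, run in R 4.3.3; lmFit, then eBayes with a robust prior; two-sided, Benjamini-Hochberg over 4929 genes, threshold 0.05), whose moderated standard errors are given. Variation reproducible between probes is a two-way F test of arrays against probe-by-array disagreement, with moderated variances. The sets come from average linkage on 1 minus Pearson's r, with the tree cut to give 3 sets. They entered as a random block (duplicateCorrelation) or as fixed blocks. Both tests were run, without blocks, on simulated data with independent arrays. That simulation had no sets and no error shared by the 2 probes of a gene, so it cannot show how the tests behave with these. Current names and lengths came from the RefSeq table (ASM294v3). Correlations and plots used Python 3.11.15.

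Every member is named, with fuller values for the eEF1A copies, the 6 of highest and 4 of lowest SD over arrays 1 to 24, the 6 of largest absolute mean and the gene copies. Alternatives were no centring, scaled arrays, each probe alone, an ordinary prior, a minimum absolute mean, a median absolute deviation, sets as blocks, each set left out and all arrays but 25 to 28. The members, lists and tests were chosen with earlier results of these data known. Matching of promoter motifs and protein identity was not analysed here.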

Additional observations from a re-analysis of the deposited data

How the results depend on the processing

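No paired analysis was possible because all 28 arrays form 1 group and no comparison between groups is made. The count of 23 genes above 0 stayed between 17 and 23 with no centring, scaled arrays, each probe alone, an ordinary prior, 1 set left out and without arrays 25 to 28. It was 0 with the sets as a random block and 5 when an absolute mean of at least 0.3 was also asked for. Of all genes, 0.629% lay above 0 with the block and 28.3% without arrays 25 to 28. For the other alternatives the share of all genes above or below 0 is not given here, so those counts have no baseline. The count below 0 was 0 except without the set of array 1 (2 genes) and without arrays 21 to 28 (1 gene, tif307). Without the set of array 1 the mean of tif222 was -0.0692 (adjusted p = 0.00993 by limma) and that of tif306 -0.104 (adjusted p = 0.0014 by limma). Without arrays 9 to 18 the mean of tif1102 was -0.0495 (adjusted p = 0.242 by limma). The 26 genes of reproducible variation became 13 with the sets removed and arrays 25 to 28 left out. The share of all genes under that joint setting is not given here, so the 13 cannot be set against it. With the sets removed alone it was 25.3%. The SD of tef101 was 1.46 with scaled arrays, 0.19 without arrays 25 to 28, 1.00 with the sets removed and 0.20 as a median absolute deviation. That of tef102 was 1.43, 0.21, 0.99 and 0.21 in that order and 1.36 by the second probe alone. That of tef103 was 0.97, 0.14, 0.62 and 0.15 in that order, 0.20 by the first probe and 1.51 by the second. The members' median SD was 0.16 with the sets removed and 0.18 as a median absolute deviation. The cause of these shifts was not tested. The members' median mean ratio and average correlation moved by less than the spread between genes under every alternative run on them. Signal over background is unknown here, so dim spots cannot be told from others.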
